A study of Mus musculus with 2 samples.

Results

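The IL-1 family is described here by 10 genes: the cytokines Il1a, Il1b, Il18, Il33, Il36a and Il36g, the antagonist Il1rn, and the receptor genes Il1r1, Il1r2 and Il1rap. They were taken by gene symbol from the 55487 gene rows of a count table, and 10 of 10 were found, 8 under these symbols and 2 through RefSeq synonyms (Il36a as Il1f6 and Il36g as Il1f9). The table holds RNA sequencing counts from Langerhans cells, epidermal cells that present antigen, isolated from digested mouse ears by sorting for CD207 and MHC class II. All cells lacked the serotonin 2A receptor gene (genotype HTR2A-/-) and were treated after sorting with a-CD40L, as the labels spell it, and with imiquimod, which activates Toll-like receptor 7 and is used to provoke psoriasis-like inflammation, for 24 hours. The single group holds 2 samples, here library 1 (69925160 counts) and library 2 (42264685 counts). The series title calls the cells monocyte-derived, and the strain, age, sex and number of mice, and any pooling, were not given in the sources used here. With no wild-type or untreated cells analysed here, every value is a level in stimulated knockout cells or a difference between these 2 libraries.

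IL-1 family cytokines are early alarm signals of the skin. IL-1α and IL-1β bind the receptor chain encoded by Il1r1, which signals only after the accessory chain encoded by Il1rap joins it, and IL-33 and the IL-36 cytokines use the same accessory chain with receptors of their own. The system carries its own brakes: the protein of Il1rn occupies the receptor without activating it, and the protein of Il1r2 is a decoy that captures IL-1 but lacks the signalling domain. IL-1β and IL-18 are made as precursors that caspase-1 cleaves inside inflammasomes, whereas IL-33 and IL-1α can be released from injured epithelial cells.

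The libraries differed in cell type markers and in genes of the sex chromosomes. Markers of keratinocytes, the epithelial cells that surround Langerhans cells, summed to 4734 CPM (counts scaled to the library total in the usual way) in library 1 and 16602 in library 2, with 13 of 14 above background in both and none at 0. Langerhans cell markers summed to 22763 and 12088 CPM, with 12 of 12 above background, and the sort marker Cd207 was at 1125 and 1052 CPM. Mature dendritic cell markers summed to 3424.5 and 1006 CPM (10 of 12 above background). Xist, expressed from the inactive X chromosome, was at 3.90 and 1384 CPM, and Ddx3y, on the Y chromosome, differed the other way, from 149 to 0.0946 CPM. Library 1 thus had a male and library 2 a female pattern, so they do not come from the same animal or pool. Sex cannot be told apart from any other difference between these libraries. Htr2a had 77 and 117 counts and lay within background, at percentiles 44.4 and 33.3 of the genes used to set it.

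All 10 members were above background in both libraries. Background was the 95th percentile of 1134 protein-coding olfactory receptor genes, known for their role in the nasal epithelium, at 0.761 CPM per kb of exon in library 1 and 1.58 in library 2. By the same rule 49.9% of the other protein-coding genes and 27.2% of all genes with an exon length were above it. The family spanned a wide range, from Il1b at 702 ± 237 CPM per kb (SD, n = 2) to Il36a at 3.58 ± 3.76. Il1b and Il1r2 together made up 92.7% of the summed CPM per kb of the 10 genes in library 1 and 78.3% in library 2.

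**Figure D1:**
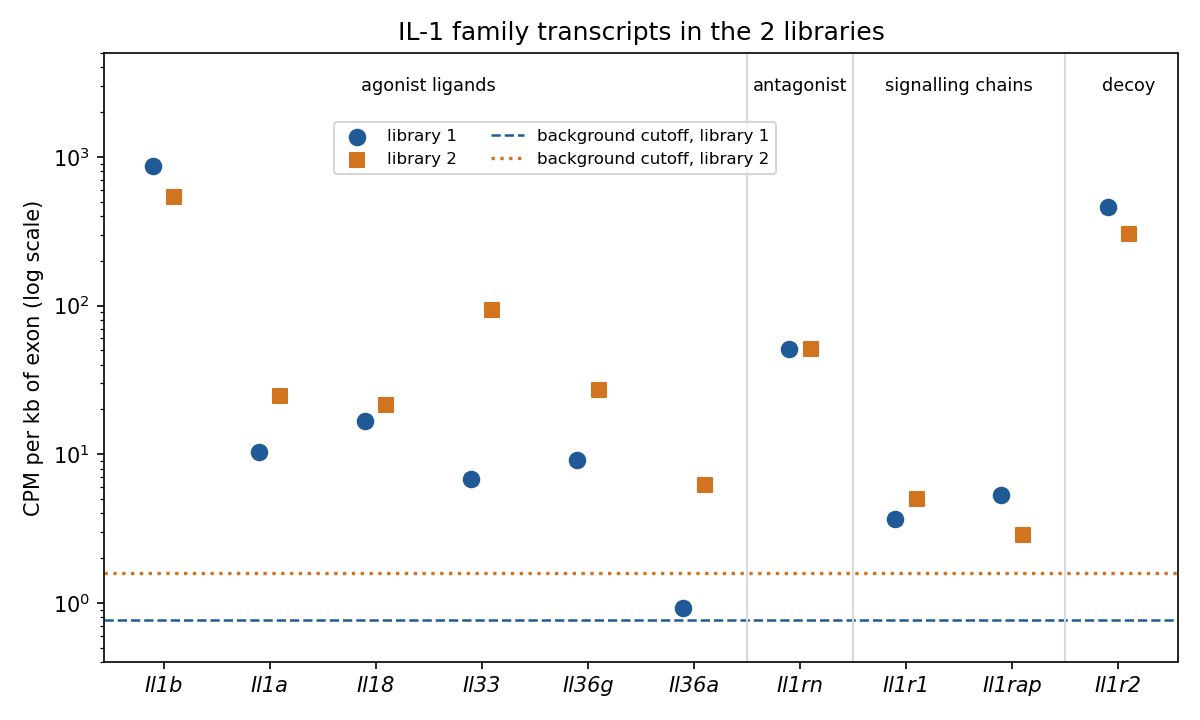
CPM per kb of exon (log axis) of the 10 genes in library 1 (circles) and library 2 (squares), by role, with each library's background cutoff as a horizontal line. Il1b and Il1r2 stand above the other members in both libraries, and Il36a in library 1 lies just above the cutoff, at 1.21 times its value.

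Il1b (ENSMUSG00000027398), which encodes the inflammasome-processed cytokine IL-1β, was the most abundant member. It had 115925 counts in library 1 and 43044 in library 2, which is 1658 CPM (95% Poisson interval 1648 to 1667) and 1018 CPM (1009 to 1028). Per kb of its 1907 bp of exon these were 869 and 534 CPM, and by the mean of both Il1b ranked 22 among 21937 protein-coding genes (14 in library 1 and 33 in library 2). Library 1 was the higher by 1.63-fold in CPM. The gene lies on GRCm38 chromosome 2, 129364570 to 129371139, minus strand. The 3 protein-coding genes closest to it in the CPM of both libraries, among 3154 with a mean of at least 50 CPM, were Iqgap1, Fosb and H2-Eb1, at distances of 0.10, 0.34 and 0.36 on the log2 scale. With only 2 libraries such likeness compares a level and a single ratio.

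Il1a (ENSMUSG00000027399), which encodes the other agonist of the IL-1 receptor and sits 54597 bp from Il1b (chromosome 2, 129299610 to 129309972, minus strand), was scarce beside it. It had 1433 counts in library 1 and 2044 in library 2, or 20.5 and 48.4 CPM. Per kb these were 10.4 and 24.5 CPM, so Il1b exceeded Il1a by 83.7-fold in library 1 (95% interval 79.5 to 88.3) and 21.8-fold in library 2 (20.9 to 22.8). The neighbours differed between the libraries in opposite directions: Il1b was higher in library 1 and Il1a in library 2. An unstranded count could mix Il1a with Gm14023, a transcript on the opposite strand that overlaps 222 bp of its exons and had 210 and 556 counts.

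The proximal promoters of these neighbours and of Il33 are shown, the 100 bases before each annotated start from RefSeq on GRCm38.p6, 5′ to 3′ on the gene's strand, with TATAAA (the TATA box) and TGANTCA (the AP-1 motif) in capitals. Whether the sequences bear on the differences between the libraries was not tested.
Il1b, chr2:129371140-129371239, minus strand: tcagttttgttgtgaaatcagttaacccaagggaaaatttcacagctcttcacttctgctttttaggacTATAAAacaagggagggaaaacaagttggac
Il1a, chr2:129309973-129310072, minus strand: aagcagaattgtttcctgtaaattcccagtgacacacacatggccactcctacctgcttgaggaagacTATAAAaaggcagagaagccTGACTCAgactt
Il33, first start, chr19:29925013-29925112, plus strand: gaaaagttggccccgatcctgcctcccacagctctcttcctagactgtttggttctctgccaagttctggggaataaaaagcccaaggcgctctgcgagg
Il33, second start, chr19:29945690-29945789, plus strand: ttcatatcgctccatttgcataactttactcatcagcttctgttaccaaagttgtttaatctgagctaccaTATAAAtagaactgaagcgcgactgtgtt

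Il1b and Il1a each carry TATAAA close to the start, beginning 31 and 32 bases upstream, and so does the second Il33 start, 29 bases upstream, while Il1a also carries TGACTCA beginning 12 bases upstream. In windows of 300 bases (250 before to 50 after the start), TATAAA on the gene's strand was present at any annotated start for 3 of the 9 members that the table holds, against 9.77% of 27025 genes, and in 4 of their 13 promoters, against 8.32% of 32851. TGANTCA on either strand was present for 2 of 9 members (Il1a and Il1rn), against 8.97% of genes, and the NF-κB consensus on either strand for 1 of 9 (the second Il1r1 start), against 9.55%. The 4 promoters with TATAAA include the first Il33 start, where it begins 203 bases upstream. Il36a had no entry. A gene count does not tell which start was used, and a match is only a stretch of letters.

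Il18 (ENSMUSG00000039217), which encodes the other caspase-1 substrate, was at 17.3 CPM (16.3 to 18.3) in library 1 against 22.1 (20.7 to 23.5) in library 2, or 16.8 and 21.4 CPM per kb. Il1b exceeded it by 51.9-fold per kb in library 1 and 25.0-fold in library 2. Il18 lies on chromosome 9 (50554827 to 50581840, plus strand), where the gene Bco2 overlaps it on the opposite strand outside its exons, with 851 and 267 counts.

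Il33 (ENSMUSG00000024810), which encodes a nuclear alarmin of epithelial and stromal cells, showed the largest difference between the libraries of the 10 members. It had 1375 counts in library 1 and 11444 in library 2, or 19.7 CPM (18.6 to 20.7) and 270.8 CPM (265.8 to 275.8), a 13.8-fold difference (GRCm38 chromosome 19, 29925114 to 29960718, plus strand). Its place in the family moved with it: per kb it was seventh in library 1, at 6.81 CPM, and the third most abundant member in library 2, at 93.8 CPM. Relative to the keratinocyte gene Krt14, there were 0.0150 Il33 counts per Krt14 count in library 1 (0.0142 to 0.0158) and 0.0563 in library 2 (0.0553 to 0.0574), a 3.77-fold difference. The size depended on the marker: relative to the 14 keratinocyte markers one by one, Il33 was higher in library 2 for 12 and lower for 2 (Ivl and Lor, genes of the cornified layer), with a median change of 3.75-fold and a range of 0.241 to 16.7. The summed keratinocyte markers differed by 3.51-fold in the same direction as Il33, and the part of keratinocyte RNA in the Il33 counts was not tested. Fibroblasts are another known source, and their markers summed to 149 and 119 CPM. Above background were 6 of 8 in library 1 and 1 of 8 in library 2 (Thy1, also a T cell gene). The cutoff was higher in library 2 (1.58 against 0.761 CPM per kb), so these counts of genes do not compare levels. The exact binomial test described below called 3 of the 8 higher and 4 lower in library 2, where 43.9% of all genes were called higher and 36.0% lower. With total counts it called 4 higher and 4 lower, and over all 30351 tested genes 19564 higher and 6204 lower. Among the genes closest to Il33 in both libraries, by the same measure as for Il1b, were Cldn4 and Dennd2c, each at a distance of 0.48.

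The IL-36 genes Il36g (ENSMUSG00000044103) and Il36a (ENSMUSG00000026984), which encode cytokines of barrier epithelia that act through Il1rl2 and Il1rap, were also higher in library 2. Il36g was at 14.9 and 44.7 CPM (1045 and 1888 counts) and Il36a at 0.815 and 5.51 CPM (57 and 233 counts). Il36a was the least abundant member in library 1 and stood at 1.21 times the cutoff there and 3.95 times in library 2, while Il36g stood at 11.9 and 17.1 times. Per kb Il36g exceeded Il36a by 9.82-fold in library 1 (7.52 to 13.1) and 4.34-fold in library 2 (3.79 to 4.996). Relative to Krt14 the Il36g counts were 0.0114 in library 1 and 0.00930 in library 2, and those of Il1a 0.0156 and 0.0101, so both differed less between the libraries than Krt14. Il36a differed more than Krt14, at 0.000620 counts per Krt14 count in library 1 (0.000469 to 0.000803) and 0.00115 in library 2 (0.001005 to 0.00130). These comparisons hold for Krt14 alone and depend on the marker. In CPM, library 2 over library 1, the 14 keratinocyte markers ran from 0.826-fold (Krt15) to 57.1-fold (Lor), with a median of 3.67. Il1a was at 2.36-fold, Il36g at 2.99-fold and Il36a at 6.76-fold. Il36g (24186476 to 24193568) and Il36a (24215418 to 24225702) are neighbours on the plus strand of chromosome 2, 21849 bp apart.

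Il1rn (ENSMUSG00000026981), whose product is the receptor antagonist, differed by less than counting error in CPM, though not under TMM scaling. It was at 282.8 CPM (278.9 to 286.8) in library 1 against 281.7 (276.6 to 286.8) in library 2, from 19777 and 11905 counts, and at 51.1 and 50.9 CPM per kb (chromosome 2, 24336853 to 24351494, plus strand). Against this level, Il1b exceeded Il1rn by 17.0-fold per kb in library 1 (16.8 to 17.3) and 10.5-fold in library 2 (10.3 to 10.7). Il1a stayed below Il1rn in both, at 0.203 of it in library 1 (0.192 to 0.214) and 0.481 in library 2 (0.459 to 0.505). Per Cd207 count there were 0.251 Il1rn counts in library 1 and 0.268 in library 2, and 1.47 and 0.968 Il1b counts. These changes depended on the marker. In CPM Cd207 was 1.07-fold higher in library 1 and the summed Langerhans cell markers 1.88-fold, against 1.63-fold for Il1b. Relative to that sum, Il1b and Il1rn were both higher in library 2.

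Among the receptors, the decoy was far more abundant than the signalling chain. Il1r2 (ENSMUSG00000026073) had 61063 counts in library 1 and 24317 in library 2, or 873 CPM (866 to 880.2) and 575 CPM (568 to 583). It ranked 60 among protein-coding genes by mean CPM per kb (40 in library 1 and 79 in library 2), whereas Il1r1 ranked 6388. Il1r1 (ENSMUSG00000026072) was at 23.5 CPM (22.3 to 24.6) and 31.5 CPM (29.9 to 33.3), or 3.69 and 4.96 CPM per kb. Per kb Il1r2 exceeded Il1r1 by 124-fold in library 1 (118 to 130.5) and 60.8-fold in library 2 (57.6 to 64.3). The genes are neighbours on the plus strand of chromosome 1, with Il1r2 at 40074079 to 40125231 and Il1r1 at 40225080 to 40317257.

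Neutrophils and monocytes also use Il1r2, and their markers were present. Neutrophil markers summed to 348 and 633 CPM (7 of 8 above background), led by S100a9 and S100a8, which keratinocytes under stress also express, while the other 6 summed to 103 and 42.4 CPM. By the exact binomial test 2 of the 8 were called higher (S100a8 and S100a9) and 4 lower in library 2, among them Csf3r, the receptor of a neutrophil growth factor, at 56.3 and 15.2 CPM. The shares over all genes were 43.9% higher and 36.0% lower. With total counts 4 of the 8 were called higher and 3 lower, against 19564 higher and 6204 lower of all 30351 tested genes. Monocyte and macrophage markers summed to 2118 and 1104 CPM (10 of 12 above background), and their part in the Il1r2 and Il1b counts was not tested.

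Il1rap (ENSMUSG00000022514), the shared accessory chain, was at 60.1 CPM (58.3 to 61.9) in library 1 against 32.3 (30.7 to 34.1) in library 2. Per kb of its 11360 bp of exon it was at 5.29 and 2.85 CPM, 6.95 and 1.80 times the cutoff (chromosome 16, 26581704 to 26730117, plus strand). The accessory chain stood above Il1r1 in library 1, at 1.44 times its CPM per kb (1.36 to 1.52), and below it in library 2, at 0.574 times (0.532 to 0.620).

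Ordered by mean CPM per kb, the members were Il1b (702), Il1r2 (379.6), Il1rn (51.0), Il33 (50.3), Il18 (19.1), Il36g (18.1), Il1a (17.4), Il1r1 (4.32), Il1rap (4.07) and Il36a (3.58). The ranges of Il1b and Il1r2 did not overlap those of any other member or each other. The range of Il33 (6.81 to 93.8) covered those of Il1rn, Il18, Il36g and Il1a, so these neighbours could not be ordered against it. Il18, Il36g and Il1a overlapped among themselves, and so did Il1r1, Il1rap and Il36a.

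**Figure D2:**
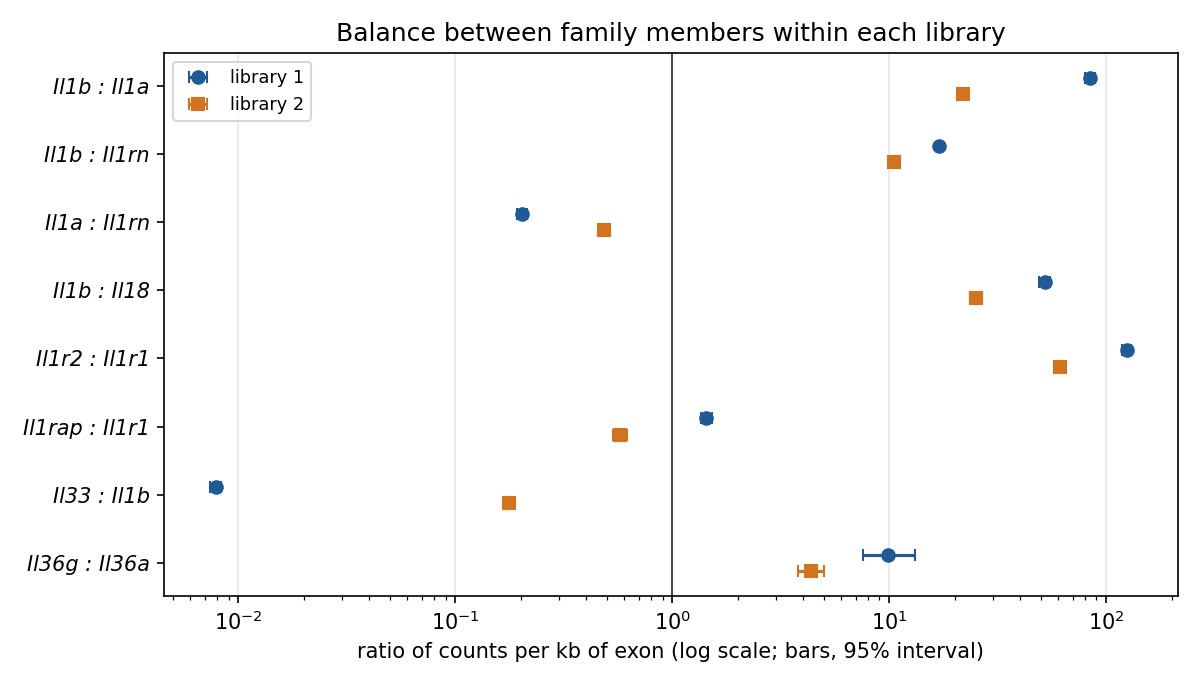
Ratio of counts per kb of exon between pairs of members (log axis) in library 1 (circles) and library 2 (squares), with 95% intervals for counting error. Il1b exceeds Il1a, Il1rn and Il18, and Il1r2 exceeds Il1r1, in both libraries. Il1rap to Il1r1 crosses 1 per kb, from 1.44 to 0.574, but not by counts (2.56 and 1.03).

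The differences between the libraries were then tested across all genes, to set these replicates against sampling noise. The exact binomial test, after scaling by TMM (edgeR's trimmed mean method) and with Benjamini-Hochberg adjustment over 30351 genes, called 9 of 10 members, against a background of 79.9% of all genes, so a call by itself says little about a member. It compares 2 libraries and no conditions. Il33, Il36a, Il36g and Il1a were higher in library 2, with log2 ratios of 3.28, 2.24, 1.08 and 0.74 (43.9% of all genes were called higher). Il1rap, Il1b, Il1r2, Il1rn and Il18 were lower, with log2 ratios of -1.39, -1.20, -1.10, -0.51 and -0.15 (36.0% called lower). Il1r1 was not called (log2 ratio -0.07, exact binomial test, adjusted p = 0.1995). At least 2-fold differences were called for 3 members higher in library 2 (Il33, Il36a and Il36g, background 24.5%) and 3 lower (Il1b, Il1r2 and Il1rap, background 12.6%). With total counts 4 were at least 2-fold higher, Il1a being added (38.6% of all genes), and 0 lower (5.47%). With DESeq2 size factors Il36g fell short, and 2 were higher (22.3% of all genes) and 3 lower (14.9%). The median over the members was -0.11, against 0.15 over all tested genes and -0.43 over the 10381 tested protein-coding genes above background. With total counts these medians were 0.39, 0.65 and 0.07.

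Scaling decided the direction for the members near 0. TMM lowers a ratio by 0.50 on the log2 scale against total counts. Il18 and Il1r1 then turned to 0.35 and 0.43, and Il1rn to -0.01, where it was no longer called (adjusted p = 0.749), so no direction can be given for these 3. The other 7 kept their direction with total counts and with DESeq2 size factors. When edgeR's exact test allowed a dispersion of 0.04, the 6 members with at least 2-fold differences under TMM were called, against 33.6% of all genes, and Il1a was not (adjusted p = 0.1596). That dispersion is an assumed value, far below what these libraries show: it stands for a coefficient of variation of 0.2, whereas the one from edgeR's common dispersion over all genes was 0.637.

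**Figure D3:**
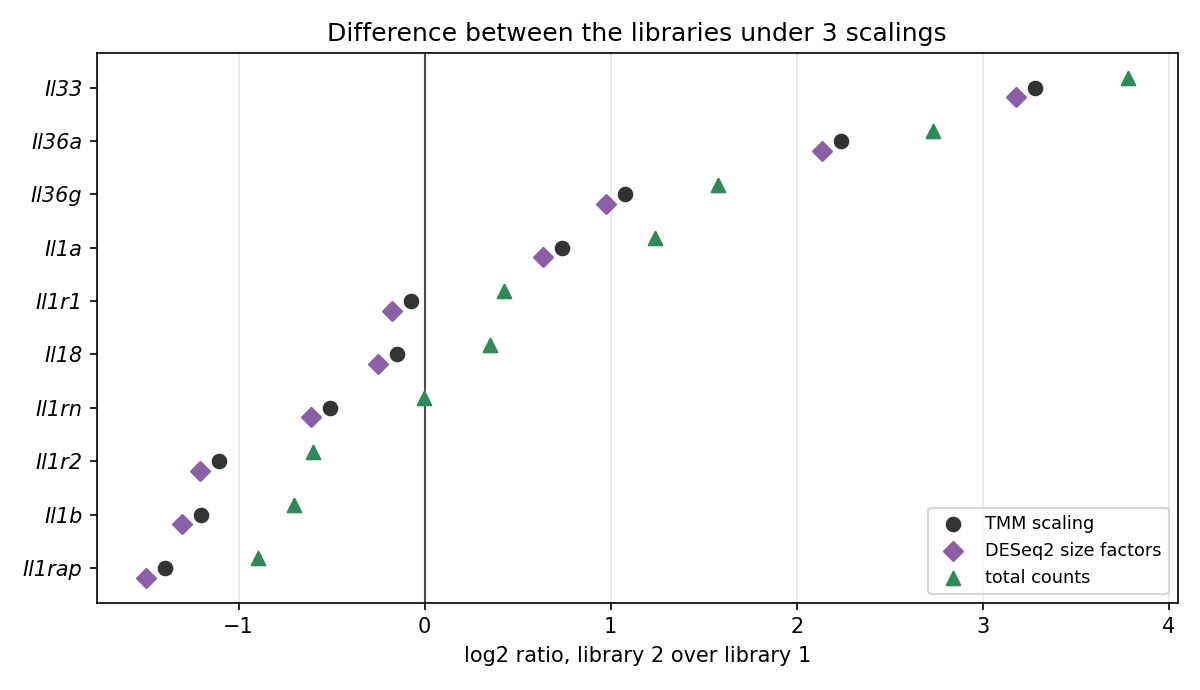
Log2 ratio of library 2 over library 1 for the 10 members under TMM scaling (circles), DESeq2 size factors (diamonds) and total counts (triangles). Il33, Il36a, Il36g and Il1a lie right of 0 and Il1rap, Il1b and Il1r2 left of 0 under each scaling, while Il18 and Il1r1 change side.

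Of the rest of the family, the IL-36 antagonist and receptor were expressed, and the receptor of IL-33 was not above background. Il36rn, which encodes the IL-36 receptor antagonist, was at 6.09 and 30.2 CPM, and Il1rl2, the IL-36 receptor, at 28.9 and 58.3 CPM. Il1rl1, which encodes the IL-33 receptor ST2, was at 0.456 and 0.872 CPM per kb, below both cutoffs. The IL-18 receptor genes differed: Il18rap was above background in both, at 28.7 and 19.1 CPM, and Il18r1 in library 1 only, at 17.2 and 7.05 CPM. Il18bp, which encodes the soluble inhibitor of IL-18, was at 6.26 and 7.71 CPM. Il36b (0.247 and 1.98 CPM per kb) was not above background in library 1, nor Il1f10, with 0 counts there (which allows up to 3 counts, or 0.0429 CPM) and 36 in library 2, and the inhibitory receptor gene Sigirr and the nervous system genes Il1rapl1 and Il1rapl2 were below both cutoffs. In all, 2 of 4 other ligands and binding proteins and 2 of 7 other receptors were above background in both libraries.

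Most genes that process IL-1 family precursors were lower in library 2, as Il1b was. Of the 14, 9 passed background in library 1 and library 2 alike, and 11 of 12 tested were called, 11 lower and 0 higher in library 2 (8 at least 2-fold), with a median log2 ratio of -1.09. For this list and the next 3, the shares over all genes are those above: 43.9% called higher, 36.0% lower and 12.6% at least 2-fold lower, with medians of 0.15 over all genes and -0.43 over expressed protein-coding genes. The background for their total-count calls is 19564 higher and 6204 lower of all 30351 tested genes. Nlrp3, the sensor of the main IL-1β inflammasome, was at 400.5 and 206 CPM, Ctss, a lysosomal protease that can cleave IL-36γ, at 1295 and 429 CPM, and Casp8, a death-pathway caspase, at 55.1 and 38.2 CPM. Gsdmd, whose cleaved product forms the pores through which IL-1β leaves, was at 34.0 and 11.6 CPM. Casp1, named after its values were seen, was at 17.9 and 7.74 CPM. The neutrophil protease genes Elane (0 and 16 counts), Ctsg (53 and 61) and Prtn3 (33 and 41) were below background in both libraries, with a higher CPM in library 2. Elane and Prtn3 did not reach 1 CPM and were not tested, and Ctsg was not called. With total counts 11 were called lower and 1 higher (Ctsg), and no tested gene of the list changed side.

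Genes that carry the receptor signal were all expressed and mostly lower in library 2. All 14 were above background, and 13 were called lower and 1 higher, with a median log2 ratio of -1.04. Ikbkb, a kinase that activates NF-κB, was at 304 and 199 CPM and Tab2, an adaptor of the kinase TAK1, at 149.9 and 82.0 CPM. Tollip, which binds and restrains IL-1 receptor kinases, was the exception, at 78.9 and 156 CPM. With total counts 9 were called lower and 3 higher, and Traf6, Map3k7, Chuk and Ikbkg changed side.

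Feedback and mRNA decay genes, which limit NF-κB and shorten the life of cytokine transcripts, were abundant. All 8 were above background and 8 were called lower in library 2, with a median of -0.97. Tnfaip3, whose product A20 restrains NF-κB, was at 1359 and 1621 CPM, Zfp36, whose product destabilises cytokine mRNA, at 1885 and 768 CPM, and Nfkbia, an NF-κB inhibitor, at 551 and 685 CPM. Nfkbia and Tnfaip3 were higher in library 2 with total counts. Socs3, a feedback inhibitor of cytokine receptors, differed more, at 615 and 149 CPM.

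Genes that IL-1 family cytokines are known to induce showed no common direction. All but Cxcl5 were above background in each library (9 of 10), and 6 were called higher and 3 lower in library 2, with a median of 0.28. Cxcl2, a neutrophil chemokine, was at 736 and 494 CPM and Ptgs2, the inducible prostaglandin synthase, at 537 and 427 CPM. Cxcl1, a chemokine of the same kind, was at 67.9 and 157 CPM. Ccl20, a chemokine that epithelial cells make in response to IL-1 and IL-17, was at 6.59 and 73.3 CPM, a log2 ratio of 2.97 and close to that of Il33. With total counts 8 were called higher and 2 lower. Across all lists 46 of 57 genes were above background in each library by itself and 44 in the pair. Of 54 tested, 51 were called, 14 higher and 37 lower (22 higher and 30 lower with total counts). Over all genes 79.9% were called, 43.9% higher and 36.0% lower. With total counts 19564 of all 30351 tested genes were called higher and 6204 lower.

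**Figure D4:**
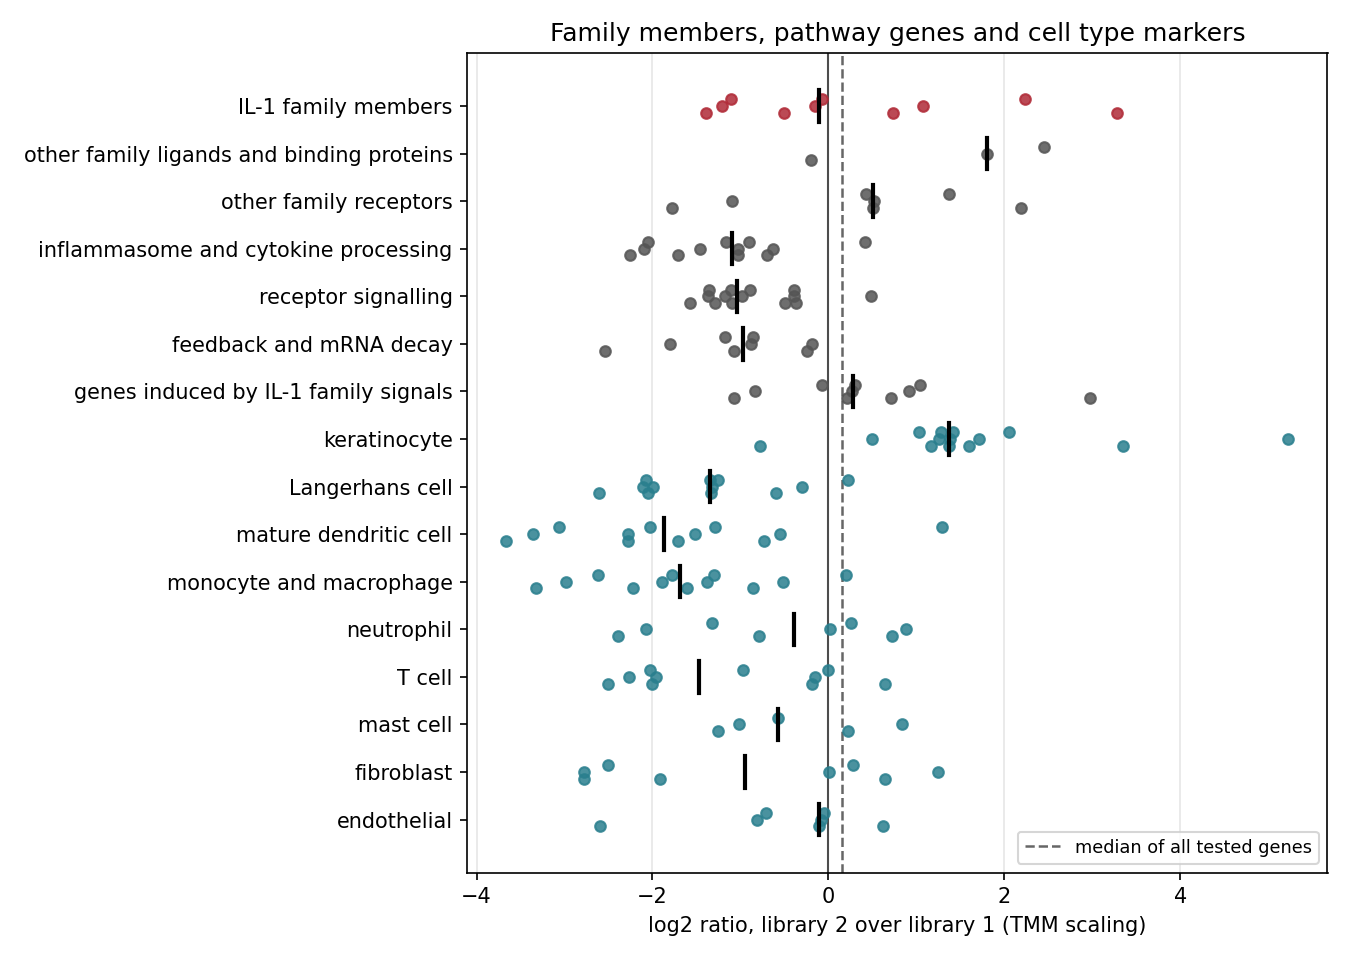
Log2 ratio of library 2 over library 1 (TMM scaling) for the members, the pathway lists and the cell type marker lists; each point is a gene, each thick bar the median of its list, and the dashed line the median of all tested genes. Members fall on both sides of 0, keratinocyte markers lie mostly to the right (median 1.38), and Langerhans and mature dendritic cell markers mostly to the left (medians -1.34 and -1.87).

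Set beside the marker lists under TMM, Il33, Il36a, Il36g and Il1a differed in the direction of 13 of 14 keratinocyte markers, and Il1b, Il1r2 and Il1rap in that of 11 of 12 Langerhans cell, 11 of 12 mature dendritic cell and 11 of 12 monocyte and macrophage markers. Over all genes 43.9% were called higher and 36.0% lower. With total counts 13 keratinocyte markers were called higher, and 10 markers in each of the other lists named here were called lower. Over all 30351 tested genes that scaling gave 19564 calls higher and 6204 lower. In bulk RNA, fewer cells of a type and less RNA per cell cannot be told apart. T cell markers (sum 228 and 142 CPM, 7 of 10 above background), mast cell markers (64.7 and 44.5 CPM, 2 of 8 above background in both libraries, with Fcer1a at 0 in both libraries and Mcpt4 at 0 in library 1), fibroblast markers (149 and 119 CPM, 6 of 8 in library 1 and 1 of 8 in library 2) and endothelial markers (93.3 and 60.1 CPM, 3 of 8 and 1 of 8) were lower in sum in library 2. Their part in the members' counts was not tested. Each library was held to its own background cutoff, which was higher in library 2.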

How the data were processed

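The values, as deposited by the authors, are whole-number counts for each Ensembl gene in 2 libraries of 1 group. Per the submitters' processing notes the tools were HISAT2 for the genome GRCm38, with Trimmomatic, StringTie and SAMtools; no version, annotation release, strand setting or counting unit is given there. Per the labels' protocols, a stranded kit for small inputs was used on 10 to 70 ng of RNA. The column ending in 2 is library 2; the other carries no number. A last row of totals was left out. Of 55487 rows, 55227 matched a symbol, an exon length (union of exons) and a position in GENCODE M21, and rows sharing a symbol were summed.

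Levels are CPM (counts over the library total), also per kb of exon, as mean ± SD. Poisson and binomial 95% intervals cover counting error only, and they take each count as a number of reads, which the sources do not state. Genes with at least 1 CPM in a library were compared by an exact binomial test (R 4.3.3, 2-sided) with edgeR 4.0.16 TMM scaling and Benjamini-Hochberg adjustment at 0.05; log2 ratios use a prior count of 1. edgeR's exactTest at a dispersion of 0, named in the design, stopped on these counts, and its binomTest ignores scaling above 10000 counts, so the same test was computed from binomial tails. A quasi-likelihood test has no residual degrees of freedom here. The test was checked on simulated data. Labels do not say how many animals each sample holds, and Xist and Ddx3y show that the libraries differ in sex. The p-values measure only these libraries. Alternatives were DESeq2 1.42.0 size factors, total counts, other filters, a dispersion of 0.04, other background percentiles and each library by itself.

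The members, pathway lists and marker lists were chosen with earlier results of these data known. Named pathway genes are the 3 most abundant above background per list and those differing at least 4-fold; genes named as not above background, Casp1, single marker genes and ratios to Krt14 or Cd207 were chosen after their values were seen. A gene that the likeness rule names for Il33 is not reported here.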

Additional observations from a re-analysis of the deposited data

How the results depend on the processing

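All 10 members stayed above background in each library by itself and at the 90th percentile of the olfactory receptor genes, and 9 did at the 99th percentile or without correction for length; the pathway count moved between 41 and 47. The number of members called was 10 with DESeq2 size factors, 9 with total counts and with either other filter, and 6 with a dispersion of 0.04. For the pathway genes it was 50 to 53 under the other scalings and filters, and 28 with a dispersion of 0.04. Log2 ratios changed sign for Il18 (0.35 with total counts and 0.37 with totals over protein-coding genes), Il1r1 (0.43 and 0.45) and Il1rn (0.012 with protein-coding totals), as the scalings differ by a constant. Over all genes, 54.97% of calls were higher in library 2 with TMM, 75.9% with total counts and 50.6% with DESeq2 size factors.

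Ratios of counts differed from those per kb of exon by the ratio of exon lengths. Per kb, in library 1 and then library 2, they were 17.0 and 10.5 for Il1b to Il1rn, 0.203 and 0.481 for Il1a to Il1rn, 51.9 and 25.0 for Il1b to Il18, 124 and 60.8 for Il1r2 to Il1r1, 1.44 and 0.574 for Il1rap to Il1r1, 0.00784 and 0.176 for Il33 to Il1b, and 9.82 and 4.34 for Il36g to Il36a. By counts, Il1b to Il1rn was smaller, at 5.86 in library 1 and 3.62 in library 2. Il1r2 to Il1r1 (37.2 and 18.2) and Il1a to Il1rn (0.0725 and 0.172) were also smaller. Larger by counts were Il1b to Il18 (95.96 and 46.2) and Il1rap to Il1r1 (2.56 and 1.03). So were Il33 to Il1b (0.0119 and 0.266) and Il36g to Il36a (18.3 and 8.103). Il1b to Il1a changed little (80.9 and 21.1 by counts). No paired analysis was possible because the samples form a single group. Depth limits only Il36a, at 57 counts in library 1.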

Other observations

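Several noncoding genes lie within or across the members' loci. Gm37347, an unclassified transcript of a single exon (GRCm38 chromosome 1, 40088511 to 40091581, plus strand), sits within an intron of Il1r2 on the same strand and had 23352 counts in library 1 and 8432 in library 2, or 334 and 199.5 CPM. These counts are separate from those of Il1r2 and equal 38.2% and 34.7% of them. The antisense gene Gm16894, which shares no exon base with Il1r2, was at 42.4 and 30.3 CPM. Il1bos, antisense to Il1b with 25 bp of shared exon, had 309 and 123 counts, 0.267% and 0.286% of those of Il1b. Within Il1r1, the same-strand transcript Gm38070 had 572 and 153 counts, 34.9% and 11.5% of those of Il1r1, and Gm20319, antisense to Il1rap with 552 bp of shared exon, had 54 and 12.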
